A study of Mus musculus with 56 samples.

Results

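The genes described here make and load the MHC class II molecule, and there are 10 of them: H2-Aa, H2-Ab1, H2-Eb1, Cd74, Ciita, H2-DMa, H2-DMb1, H2-DMb2, H2-Oa and H2-Ob. They are taken by name. All 10 were found in both deposited tables, of 52636 genes (heart) and 57010 genes (bone, muscle and skin), and all 10 passed the filter on low counts in every fit. MHC class II is the surface molecule with which macrophages, dendritic cells and B cells show peptides from engulfed protein to CD4+ T cells. Its alpha and beta chains are built with the invariant chain Cd74, which blocks the groove until endosomal proteases cut it away, and H2-DM then exchanges the remaining fragment for a peptide. Most of these genes share promoter elements that are bound by RFX and NF-Y proteins and are switched on by the coactivator Ciita, itself a target of interferon gamma.

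The libraries come from monocytes and macrophages sorted from an injured tissue: heart after myocardial infarction, bone with a cranial defect, muscle with volumetric loss, or skin with a full-thickness punch. The depleted arm was Foxp3(DTR/GFP) mice (FDG in the labels), in which Foxp3-expressing cells make the diphtheria toxin (DT) receptor and regulatory T cells (Tregs) are killed by the toxin. The control arm was wild-type (WT) C57BL/6J mice. Both arms received DT at 20 ng/g from before the injury onward, and all were 10 weeks old. Genotype and depletion therefore go together, and the toxin is common to both arms. Each group held 3 libraries in heart (days 4 and 7) and in muscle (days 4 and 7), 4 in skin (days 4 and 7), and 5 at day 7 and 3 at day 10 in bone, 56 in all. Whether each library is another animal is not stated in the labels, so a p-value here reflects library-to-library spread alone, and that spread may be technical. For bone the labels give days 7 and 10, where the series text has days 4 and 7. Heart columns without a day in their name were assigned to day 7.

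Library totals were 2642452 to 9788811 counts for heart, 3013776 to 5392932 for skin, 3439692 to 6397434 for muscle and 2318268 to 5835113 for bone. Levels below are CPM (the deposited value over the library's total, scaled to 1e6 counts), and log2 changes are from edgeR fits with TMM normalization, each with its standard error (SE). Apart from the pair H2-DMb1 and H2-DMb2, CPM of different genes are not compared, since 3′ counts depend on each gene's transcript ends. The macrophage markers Csf1r, Adgre1, Cd68, Itgam, Lyz2, Fcgr1, Mertk and Ly6c2 were present in every group, with a summed CPM per library (8 rows, and 9 in heart, where Itgam has a second row) between 8398 (bone, depleted, day 10) and 31900 (heart, control, day 7). In bulk libraries, fewer cells that express class II and less class II RNA per cell cannot be told apart. Foxp3, the targeted locus, gave 25 counts in all control and 10 in all depleted bone libraries, 34 and 4 in skin, 4 and 3 in muscle, and 0 and 0 in heart, too few in sorted myeloid cells to check the depletion.

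The promoters of 6 of these genes are shown because the shared elements are what ties the genes to Ciita. RefSeq windows of 250 bases before to 50 bases after a start (GRCm38.p6) were matched by symbol for 7 of the 10 genes, in 8 windows. Each stretch below covers bases -120 to -21 from the start, 5′ to 3′ on the gene's strand, and capitals mark a Y box (CCAAT, or ATTGG on the other strand) or an X box core (AGCAAC, or GTTGCT on the other strand). The chain genes H2-Aa (chr17:34287844-34287943, minus strand) and H2-Eb1 (chr17:34305747-34305846, plus strand) come first. The peptide loading genes H2-DMb1 (chr17:34153071-34153170) and H2-DMb2 (chr17:34145129-34145228), and the H2-O genes H2-Oa (chr17:34092259-34092358) and H2-Ob (chr17:34238785-34238884), all on the plus strand, follow.
H2-Aa: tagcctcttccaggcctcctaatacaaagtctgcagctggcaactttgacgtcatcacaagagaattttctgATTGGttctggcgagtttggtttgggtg
H2-Eb1: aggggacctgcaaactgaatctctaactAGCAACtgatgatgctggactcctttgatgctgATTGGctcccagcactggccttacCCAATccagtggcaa
H2-DMb1: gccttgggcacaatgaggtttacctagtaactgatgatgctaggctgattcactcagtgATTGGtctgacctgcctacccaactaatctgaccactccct
H2-DMb2: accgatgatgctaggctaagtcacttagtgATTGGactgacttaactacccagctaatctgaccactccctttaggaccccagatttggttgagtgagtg
H2-Oa: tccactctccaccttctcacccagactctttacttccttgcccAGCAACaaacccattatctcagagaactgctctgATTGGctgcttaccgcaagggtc
H2-Ob: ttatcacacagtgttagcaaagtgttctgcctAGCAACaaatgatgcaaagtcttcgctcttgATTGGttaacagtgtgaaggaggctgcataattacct

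A Y box was found in all 7 genes with a window, against 37.4% of the 32851 windows of all genes. H2-DMa has more than 1 window, and the one at chr17:34122582-34122881 held 0 Y boxes. Counts of genes here take a match in any window of a gene, while the shares are per window. In the stretches above it begins between -90 (H2-DMb2) and -43 (H2-Oa), with a second copy at -35 in H2-Eb1, and in H2-DMa it lies farther off, at -198. The X box core was found in 3 genes, H2-Eb1 (at -92), H2-Oa (-77) and H2-Ob (-88), each time before the Y box, against 14.8% of all windows, and both motifs occurred together in 5.84% of all windows. An interferon-stimulated response element (ISRE, searched as GAAA, any 2 bases, GAAA) was found in 0 of the 7 genes and 3.44% of all windows. A gamma-activated site (GAS, searched as TTC, any 3 bases, GAA) was found in 1, H2-DMb2, and 8.30% of all windows. Both strands were searched, and no match overlapped another. These matches describe letters in a window. Where the genes themselves lie, 8 of the 10 are on chr17, from H2-Oa (chr17:34092340-34095234) to H2-Eb1 (chr17:34305867-34316674), and Ciita lies apart at chr16:10480059-10528418, all in GRCm38.

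H2-DMb1 and H2-DMb2 are near copies, and 37.6% of the 31-base words of H2-DMb1 transcripts also occur in H2-DMb2. Their deposited values were not whole numbers in 43 of 44 bone, muscle and skin libraries. In those libraries H2-DMb2 stood at 17.5% of H2-DMb1 in the median (7.87% to 49.7%), and in heart at 3.49% (2.40% to 7.85%). The heart values are whole numbers from other processing, so the 2 shares are not alike. The split between the pair is therefore uncertain, and H2-DMb2 is read with that limit throughout. H2-Oa and H2-Ob were counted at low depth, with medians of 31.5 and 14.5 counts per library, and Ciita with a median of 147.5.

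**Figure D1:**
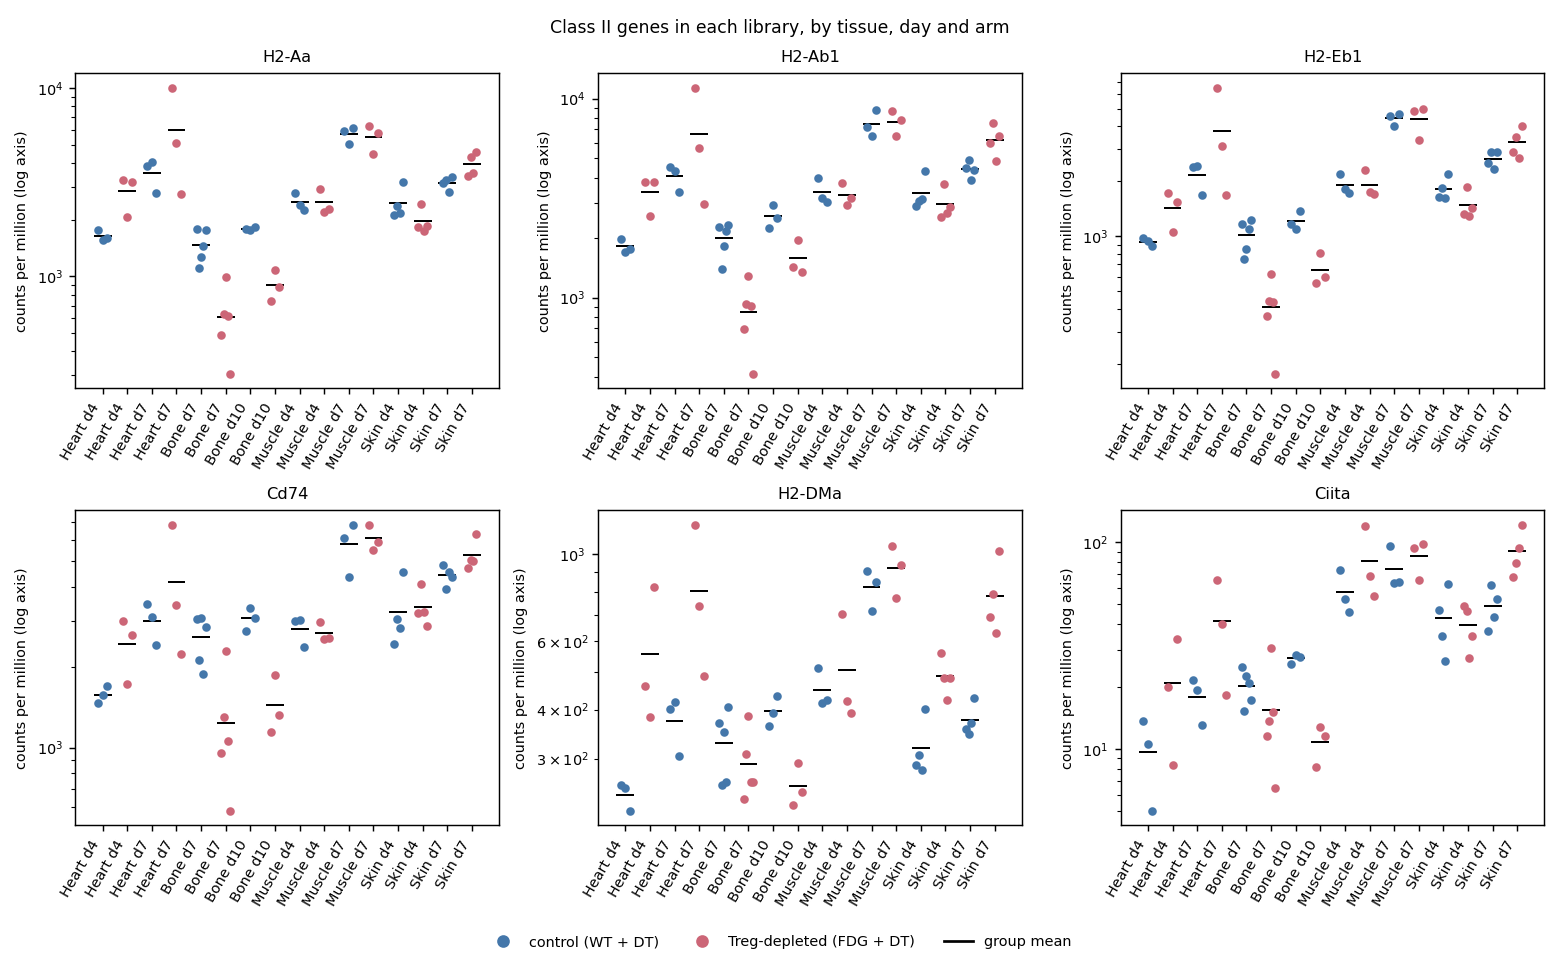
CPM (log axis) of 6 class II genes in each library of the 16 groups, control libraries in blue, Treg-depleted libraries in red, black bars for group means. Depleted bone at day 7 has the lowest means for H2-Aa, H2-Ab1 and H2-Eb1, day 7 muscle libraries lie above day 4 muscle libraries for every gene shown but Ciita, and the 3 depleted heart libraries of day 7 are spread widely.

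In control mice the class II chains differed between tissues at day 7, lowest in bone and highest in muscle. H2-Ab1, the beta chain of the I-A molecule, stood at 1393, 1812, 2150, 2272 and 2328 CPM in the 5 bone libraries, at 6474, 7172 and 8778 CPM in the 3 muscle libraries, and at 3875, 4355, 4485 and 4911 CPM in the 4 skin libraries. The 3 tissues did not overlap. Against muscle, bone was lower for 8 of the 10 genes (7.32% of all genes tested were lower), from H2-Eb1 (log2 difference -2.09 ± 0.21 SE, edgeR adjusted p = 6.56e-10) to Cd74 (-1.13 ± 0.25, adjusted p = 0.00117). H2-Oa and H2-Ob did not pass. Against skin, bone was lower for 7 (14.1% of all genes were lower), among them Ciita, at 20.1 ± 3.9 CPM (SD, n = 5) in bone and 48.9 ± 10.9 CPM (SD, n = 4) in skin (log2 difference -1.32 ± 0.27, edgeR adjusted p = 0.000226). H2-DMa and H2-DMb1, which load the peptide, did not differ between bone and skin beyond their spread (-0.23 ± 0.16 and -0.10 ± 0.18, adjusted p = 0.295 and 0.720).

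Muscle exceeded skin for 5 genes at day 7 (5.17% of all genes were higher), with H2-DMb1 at 669 ± 49.5 CPM (SD, n = 3) against 239 ± 20.5 CPM (SD, n = 4), a log2 difference of 1.41 ± 0.20 (edgeR adjusted p = 4.4e-06). H2-DMa, H2-Aa, H2-Ab1 and H2-Eb1 were the other 4, and the count was 2 without muscle library 3, 3 without muscle library 1 or any 1 of the 4 skin libraries, and 4 without muscle library 2. At day 4 no gene of the 10 differed between control muscle and control skin by edgeR (1 at an unadjusted p under 0.05, 0 by DESeq2), where 12.3% of all genes did. Medians over the 10 genes were -1.66 for bone against muscle, -1.12 for bone against skin and 0.68 for muscle against skin at day 7, beside -0.004, -0.027 and 0 over all genes.

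Other cell types also differed between these control tissues. Summed CPM of the 8 neutrophil markers was 4919 to 10330 in control bone at day 7, 122 to 140 in muscle and 673 to 1423 in skin. Summed CPM of the 10 dendritic cell markers, cells rich in class II, was lowest in bone (124 to 206), then skin (235 to 345), then muscle (363 to 431). The members of that list did not share a pattern. Over the 12 group means of these tissues, their Pearson's r with H2-Ab1 ran from -0.144 (Flt3) to 0.915 (Clec10a). Xcr1, Clec9a and Siglech did not pass the filter on low counts in that fit. Sums of this list, here and below, are read with that limit. The Langerhans cell markers Cd207 and Epcam summed to 15.4 to 25.0 CPM in skin at day 7 and to at most 3.48 CPM in control bone and 1.53 CPM in control muscle. Their part in the differences between tissues was not tested.

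**Figure D2:**
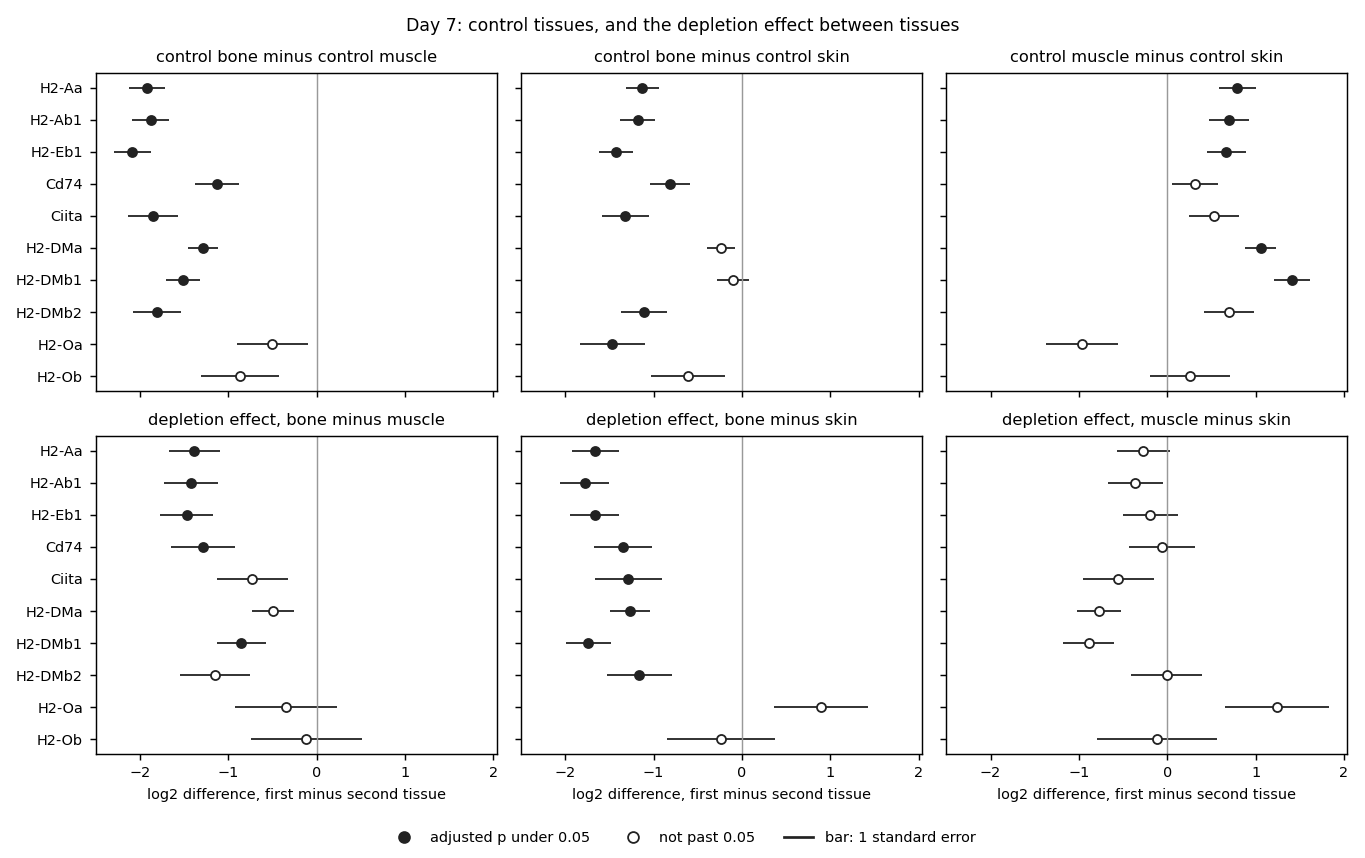
Log2 differences (x axis, points with bars of 1 SE) of the 10 genes at day 7 between control tissues (upper row) and of the depletion effect between tissues (lower row), filled where the edgeR adjusted p was under 0.05. Bone lies below muscle and skin in both rows for the chains H2-Aa, H2-Ab1 and H2-Eb1 and for Cd74.

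In bone the class II chains were lower in the depleted arm at day 7. H2-Aa, the I-A alpha chain, stood at 1105, 1271, 1458, 1755 and 1778 CPM in control bone and at 303, 488, 616, 632 and 990 CPM in depleted bone. The arms did not overlap, and the log2 change was -1.33 ± 0.23 SE (edgeR adjusted p = 0.00046). H2-Ab1 ran from 1393 to 2328 CPM (median 2150) in control and from 412.5 to 1278 CPM (median 911) in depleted libraries, also without overlap (-1.29 ± 0.24, adjusted p = 0.000656). For H2-Eb1, the I-E beta chain, the arms were 754, 852, 1099, 1173 and 1219 CPM against 176, 365, 437, 439 and 620 CPM (-1.37 ± 0.25, adjusted p = 0.000594). C57BL/6 mice lack a working gene for the I-E alpha chain, H2-Ea, and it gave at most 3 counts here over all libraries of a tissue and arm.

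The invariant chain Cd74 followed the chains, with 1882, 2140, 2844, 3035 and 3075 CPM in control and 578, 953, 1062, 1302 and 2310 CPM in depleted bone (log2 change -1.11 ± 0.29, edgeR adjusted p = 0.0123). A single depleted library, the third, lay within the control range, and with no filter on low counts the call was lost (-1.08, adjusted p = 0.0606). Of the peptide loading genes, H2-DMb1 fell from 230 ± 37.7 to 140 ± 49.4 CPM (SD, n = 5 each; -0.76 ± 0.20, adjusted p = 0.00745), and H2-DMb2 fell by 0.78 on the log2 scale (SE 0.23, adjusted p = 0.0159). H2-DMa, the partner chain of H2-DMb1, was 329 ± 66.4 CPM in control and 291 ± 59.1 CPM in depleted libraries and did not pass (-0.23 ± 0.16, adjusted p = 0.325). Ciita, the coactivator, was 15.2, 17.3, 20.8, 22.5 and 24.8 CPM in control and 6.49, 11.5, 13.7, 15.1 and 30.7 CPM in depleted libraries and did not pass either (-0.41 ± 0.29, adjusted p = 0.327). Its highest value of all 10 libraries was again in the third depleted library, and without that library the change was -0.84 with an adjusted p of 0.0112.

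In all, 6 of the 10 genes fell and 0 rose in bone at day 7, where 12.6% of all 12709 genes tested fell. The median over the 10 was -0.94 and over all genes 0.00. Leaving out 1 library gave 6 or 7 genes. With the level of the ribosomal RNA Rn18s-rs5 as a covariate, 4 passed (H2-Aa, H2-Ab1, H2-Eb1 and Cd74), while H2-DMb1 was at -0.86 (adjusted p = 0.0527) and H2-DMb2 at -0.60 (adjusted p = 0.297). Rn18s-rs5 ran from 14230 to 77600 CPM in control and from 49310 to 103600 CPM in depleted libraries. The effect was the same in direction at day 10, where the groups held 3 libraries each. H2-Aa stood at 1753, 1775 and 1827 CPM in control and 739, 873 and 1076 CPM in depleted libraries (log2 change -0.90 ± 0.30, edgeR adjusted p = 0.0474). Ciita stood at 25.8, 27.9 and 28.4 CPM against 8.13, 11.5 and 12.8 CPM (-1.24 ± 0.39, adjusted p = 0.0345), and H2-DMb1 at 249, 326 and 330 CPM against 136, 141 and 190 CPM (-0.86 ± 0.25, adjusted p = 0.0254). All 3 fell, of 10, where 8.22% of all genes fell.

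The other 7 genes were lower in mean but did not pass at day 10, among them H2-Ab1 (-0.59 ± 0.30, adjusted p = 0.188) and Cd74 (-0.98 ± 0.38, adjusted p = 0.0887). For 8 of the 10 genes every depleted library lay below every control library, as did 21% of all genes tested, and the median of the 10 was -0.82 beside -0.01 over all genes. Fitted without the day 7 libraries, 7 genes fell, and with the Rn18s-rs5 covariate or without any 1 of 4 of the 6 libraries (depleted 1 or 3, control 2 or 3) 0 did, and without control library 1 only H2-DMb1 did. Under the covariate the log2 changes were -1.11 for H2-Aa, -1.82 for Ciita and -1.01 for H2-DMb1 (adjusted p = 0.262, 0.125 and 0.210), and the call of H2-Aa was also lost with no filter on low counts (-0.92, adjusted p = 0.110) and by limma-voom (-0.91, adjusted p = 0.0543). Rn18s-rs5 itself did not overlap between the arms at day 10, at 17100 to 26110 CPM in control and 66970 to 94970 CPM in depleted libraries. A test of the difference between the days found no gene of the 10 with another depletion effect at day 10 than at day 7 (0 at an unadjusted p under 0.05, 0 by DESeq2). Across all genes 0% differed in that test.

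Markers of other cells moved with the bone result. Among neutrophil markers 5 of 8 rose at day 7 and 6 of 8 at day 10, with summed CPM of 4919 to 10330 (control) and 7473 to 23990 (depleted) at day 7 and 4279 to 7356 and 15280 to 25500 at day 10. Among the 8 macrophage markers, Csf1r, Adgre1, Cd68, Lyz2 and Mertk fell and Ly6c2, a marker of inflammatory monocytes, rose at day 7. Of the dendritic cell markers 2 of the 6 tested fell at day 7, Cd209a (log2 change -2.59 ± 0.25) and Ccr7, and the 10 summed to 124 to 206 CPM in control and 63.3 to 107 CPM in depleted libraries. B cell markers summed to 52.4 to 63.9 CPM and 24.4 to 42.0 CPM, with 1 of 6 tested (Cd79b) lower, and T and NK cell markers to 70.9 to 104 CPM and 162 to 277.5 CPM, with 5 of 6 tested higher. No marker of these lists was at 0 in all libraries of a bone group at day 7, and their part in the class II result was not tested.

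**Figure D3:**
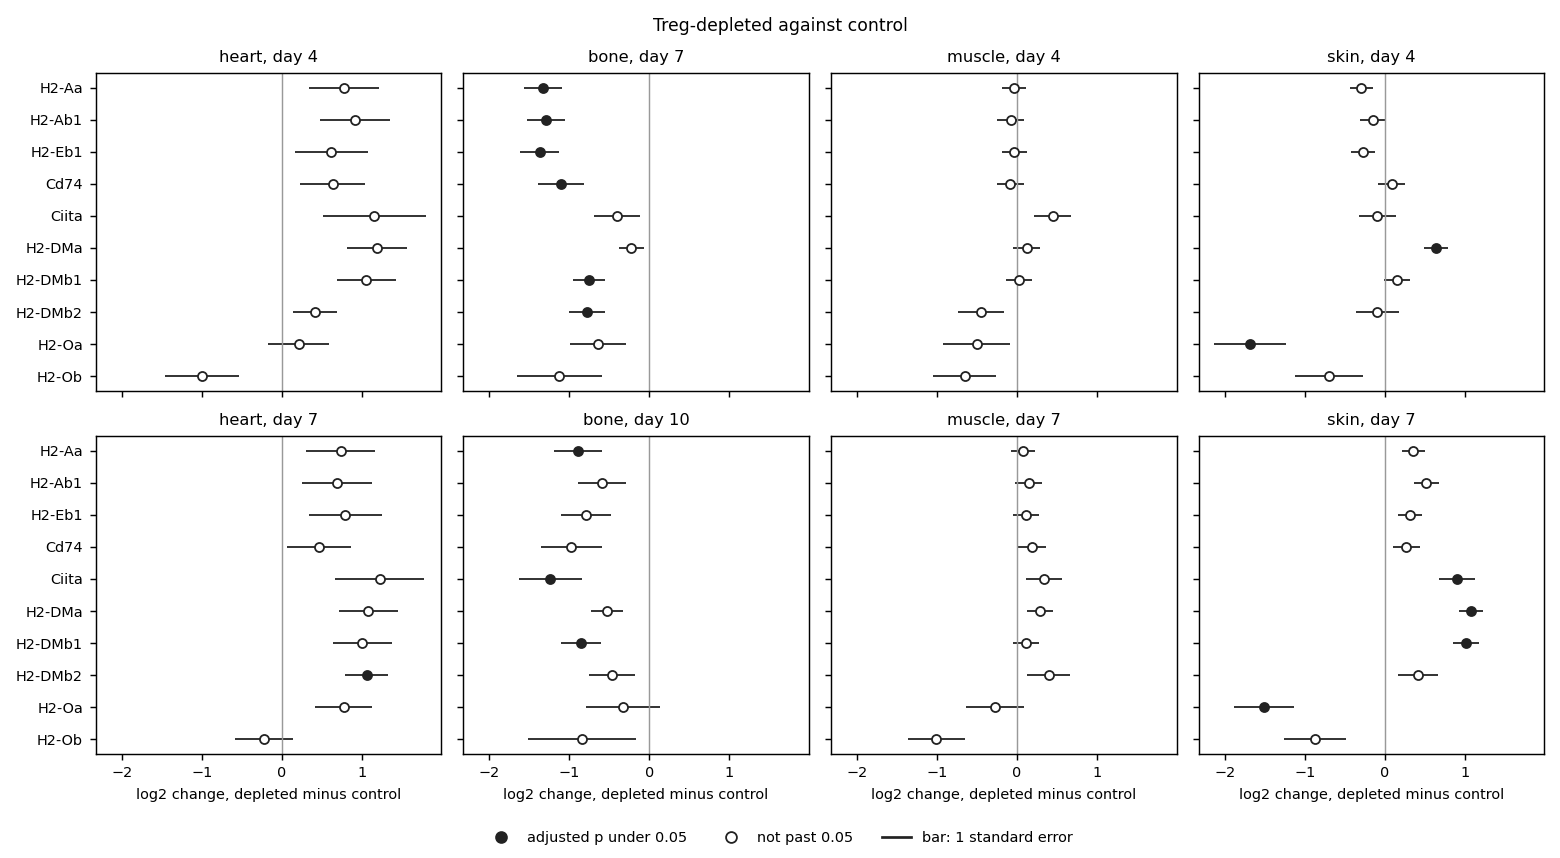
Log2 change, depleted minus control (x axis, points with bars of 1 SE), of the 10 genes in the 8 comparisons of tissue and day, filled where the edgeR adjusted p was under 0.05. All points lie below 0 in bone, H2-DMa, H2-DMb1 and Ciita lie at or above 0.91 in skin at day 7 with H2-Oa at -1.51, and the muscle points of the chains and Cd74 lie within 0.19 of 0.

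In skin the depleted arm had more H2-DMa at both days, more H2-DMb1 and Ciita at day 7, and less H2-Oa at both days. H2-DMa stood at 346, 358, 369 and 428 CPM in control and 626.5, 688, 788 and 1018 CPM in depleted skin at day 7, with no overlap (log2 change 1.07 ± 0.15 SE, edgeR adjusted p = 5.44e-05). It was already higher at day 4, at 280, 288, 306 and 402 CPM in control and 424, 481, 482 and 558 CPM in depleted libraries (0.64 ± 0.15, adjusted p = 0.0157). H2-DMb1 stood at 216, 228, 255 and 257 CPM in control and 347, 460, 538 and 556 CPM in depleted libraries at day 7 (1.01 ± 0.16, adjusted p = 0.000261), and at day 4 the arms overlapped (0.15 ± 0.16, adjusted p = 0.723). Ciita stood at 37.0, 43.4, 53.3 and 61.8 CPM in control and 67.5, 79.0, 94.0 and 122 CPM in depleted libraries at day 7 (0.91 ± 0.22, adjusted p = 0.0158). At day 4 its change was -0.09 ± 0.23 (adjusted p = 0.899). H2-DMb2 passed at neither day (-0.09 ± 0.27 at day 4 and 0.41 ± 0.25 at day 7, adjusted p = 0.918 and 0.430).

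H2-Oa moved the other way. Its product pairs with that of H2-Ob to form H2-O, a protein that binds H2-DM and holds back peptide loading, known mainly from B cells and some dendritic cells. H2-Oa stood at 16.5, 18.4, 28.8 and 35.6 CPM in control and 5.30, 7.00, 8.75 and 13.7 CPM in depleted skin at day 7 (log2 change -1.51 ± 0.38, edgeR adjusted p = 0.0174). At day 4 it stood at 4.51, 8.28, 10.3 and 13.8 CPM in control and 0.960, 1.30, 4.21 and 4.57 CPM in depleted libraries (-1.68 ± 0.45, adjusted p = 0.0389), and only the lowest control library met the depleted range. H2-Ob was 6.69 ± 3.24 CPM in control and 3.64 ± 0.867 CPM in depleted skin at day 7 (SD, n = 4 each) and did not pass (-0.88 ± 0.39, adjusted p = 0.220).

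The class II chains themselves did not pass in skin. The nearest was H2-Ab1 at day 7, with 3875, 4355, 4485 and 4911 CPM in control and 4842, 6001, 6484 and 7545 CPM in depleted libraries (log2 change 0.52 ± 0.16, edgeR adjusted p = 0.0551), which passed by DESeq2 (adjusted p = 0.0288). H2-Aa changed by 0.36 ± 0.15, H2-Eb1 by 0.32 ± 0.15 and Cd74 by 0.27 ± 0.17, with adjusted p of 0.178, 0.250 and 0.435. Counted together, 3 of the 10 genes rose and 1 fell at day 7, where 6.21% of all genes changed, and 1 rose and 1 fell at day 4, where 3.57% changed. The medians of the 10 were 0.38 and -0.12, beside 0.01 and -0.01 over all genes.

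With the Rn18s-rs5 covariate the day 7 calls of Ciita and H2-Oa were lost (log2 changes 0.87 and -1.38, adjusted p = 0.0733 and 0.111), and both were also lost without depleted library 4 or control library 1, leaving H2-DMa and H2-DMb1. Without depleted library 1 or control library 2 H2-Oa alone was lost, and without control library 3 Ciita alone. The day 4 calls were lost, 1 or both, without any 1 of 6 of the 8 libraries, both of them without control library 1 or 2. In the test of the difference between the days, 0 of the 10 depletion effects in skin passed (6 at an unadjusted p under 0.05, 1 by DESeq2, H2-DMb1), where 0.848% of all genes did. The nearest was H2-DMb1, with a difference of 0.87 ± 0.23 (adjusted p = 0.076).

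Of the 2 Langerhans cell markers 1, Cd207, was lower in depleted skin at day 7. Cd207 and Epcam summed to 15.4 to 25.0 CPM in control and 5.86 to 13.0 CPM in depleted skin at day 7, and Cd207 alone fell from 6.44 ± 1.79 to 0.355 ± 0.197 CPM (SD, n = 4 each; log2 change -4.09, edgeR adjusted p = 6.39e-05). At day 4 the pair summed to 0.883 to 2.99 CPM and 0.240 to 3.26 CPM, and 0 of the 2 passed. Sums this low could hardly show a fall. The dendritic cell markers summed to 235 to 345 CPM in control and 299 to 399.5 CPM in depleted libraries at day 7, with Clec10a higher and Cd209a lower (log2 changes 0.74 ± 0.19 and -1.23 ± 0.24). B cell markers summed to 29.5 to 44.9 CPM and 26.3 to 45.3 CPM, with Fcmr at 0 in the control libraries and 0 of 3 tested changed. The part of Langerhans and dendritic cells in these results was not tested.

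**Figure D4:**
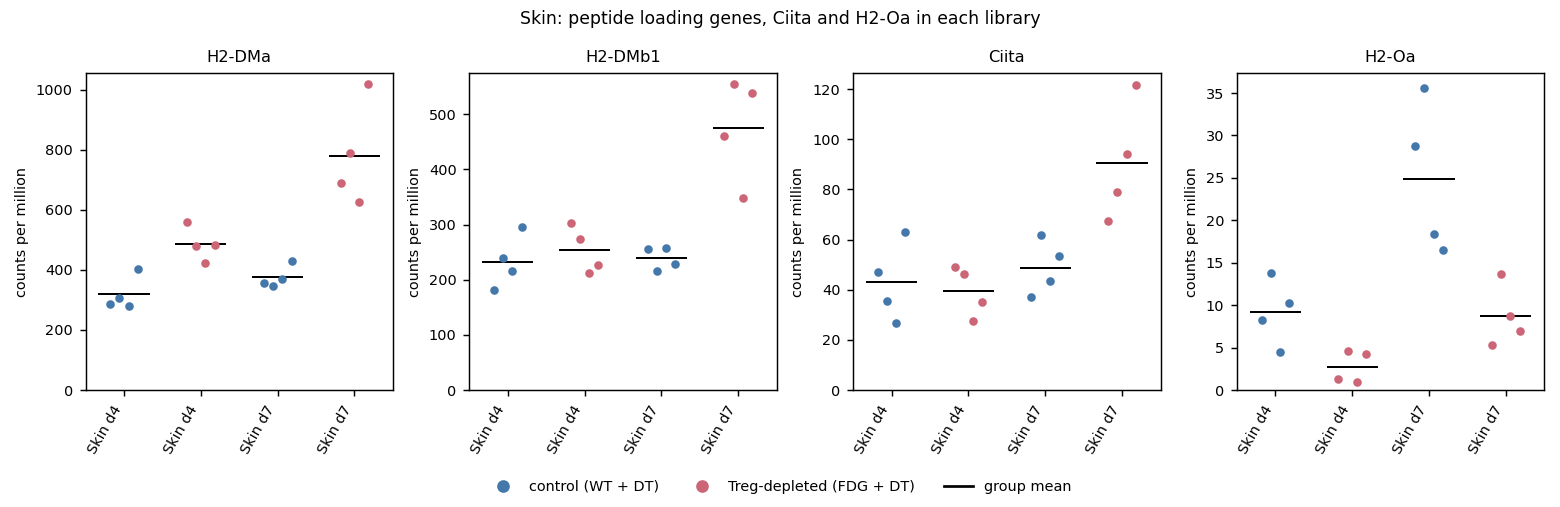
CPM of H2-DMa, H2-DMb1, Ciita and H2-Oa in each of the 16 skin libraries by day and arm, control in blue and Treg-depleted in red, with black bars for group means. At day 7 every depleted library lies above every control library for the first 3 genes and below every control library for H2-Oa.

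For H2-Aa, H2-Ab1, H2-Eb1 and Cd74 the widest spread between libraries was in depleted heart at day 7. Control heart at day 4 was narrow, with H2-Aa at 1648 ± 109 CPM (SD, n = 3). At day 4, H2-Aa stood at 1568, 1604 and 1771 CPM in control and at 2061, 3164 and 3265 CPM in depleted libraries. The arms did not overlap, but in the fit of the 4 heart groups the change did not pass (log2 change 0.78 ± 0.44 SE, edgeR adjusted p = 0.320). H2-DMa, at 220, 252 and 256 CPM against 383, 461 and 821 CPM, came nearest (1.19 ± 0.38, adjusted p = 0.083). At day 7, H2-Aa stood at 2774, 3854 and 4035 CPM in control and at 2722, 5099 and 10060 CPM in depleted libraries, so that the lowest and the highest of the 6 were both depleted libraries (0.74 ± 0.44, adjusted p = 0.418). The depleted library with the highest value, FDG1 by its column name, was also the highest day 7 library for H2-Ab1, H2-Eb1 and Cd74, with 11360, 6517 and 6841 CPM.

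By that fit 0 of the 10 genes passed in heart at day 4 (3 at an unadjusted p under 0.05, 2 by DESeq2, H2-DMa and H2-DMb1), where 11.1% of all genes changed. For 6 genes (H2-Aa, H2-Ab1, H2-Eb1, Cd74, H2-DMa and H2-DMb1) every depleted library lay above every control library, as did 13.2% of all genes tested. Fitted without the day 7 libraries, 5 rose: H2-Aa (0.79, adjusted p = 0.00573), H2-Ab1, H2-Eb1, Cd74 and H2-DMa. At day 7 a single gene rose, H2-DMb2, at 5.84, 7.97 and 9.14 CPM in control and 12.8, 13.6 and 21.7 CPM in depleted libraries (1.07 ± 0.27, adjusted p = 0.0364), where 1.58% of all genes rose. That call was lost without FDG1 (adjusted p = 0.204), without control library WT3 or WT4, in the fit without day 4, and when H2-DMb1 and H2-DMb2 were summed.

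Medians of the 10 heart changes were 0.71 at day 4 and 0.78 at day 7, with 9 of 10 above 0 at each, beside -0.023 and -0.004 over all genes. No depletion effect differed between the days in heart by edgeR (0 of 10 at an unadjusted p under 0.05, 0 by DESeq2), where 4.09% of all genes did. T and NK cell markers summed to 2.51 to 6.32 CPM in control and 9.46 to 34.9 CPM in depleted heart at day 4, with medians of 3.55 and 12.1 CPM at day 7. At day 7 B cell markers summed to 59.8 to 74.3 CPM in control and 83.2 to 127 CPM in depleted heart. Neutrophil markers summed to 143 to 232 and 361 to 682.5 CPM, and macrophage markers to 26850 to 31900 and 21320 to 24980 CPM. These lists overlapped between the arms at day 4. Dendritic cell markers summed to 126 to 140 CPM in control and 96.1 to 105 CPM in depleted heart at day 4. They overlapped at day 7. The part of these cells in the heart values was not tested. Interferon gamma (Ifng), the classical inducer of Ciita, gave 0 counts in control and 5 in depleted heart, 5 and 17 in bone, 0 and 7 in muscle, and 1 and 2 in skin over all libraries of an arm. These counts are too few for a comparison.

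In muscle no class II gene passed the test of depletion. H2-Ab1 stood at 6474, 7172 and 8778 CPM in control and 6449, 7779 and 8685 CPM in depleted muscle at day 7 (log2 change 0.15 ± 0.17 SE, edgeR adjusted p = 0.691), and Ciita at 63.2, 64.0 and 95.9 CPM against 65.8, 94.0 and 97.9 CPM (0.34 ± 0.23, adjusted p = 0.458). The arms overlapped for both. At day 7, 0 of the 10 genes passed (1 at an unadjusted p under 0.05, H2-Ob, and 0 by DESeq2), although 8.59% of all genes changed. At day 4, 0 passed (0 at an unadjusted p under 0.05, 0 by DESeq2), where 0.155% of all genes changed. The depletion effect did not differ between days 4 and 7 (0 of 10 by edgeR, 1 at an unadjusted p under 0.05, 0 by DESeq2, and 2.41% of all genes). H2-Ob, at 6.56, 7.85 and 11.1 CPM in control and 2.76, 3.94 and 4.96 CPM in depleted muscle at day 7, did not overlap and was nearest to passing (-1.01 ± 0.35, adjusted p = 0.0908).

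The depletion effect was then compared between tissues, in 1 fit of bone, muscle and skin. At day 7 the effect in bone was lower than in skin for 8 of the 10 genes (5.58% of all genes were lower), with H2-Ab1 at -1.78 ± 0.28 SE (edgeR adjusted p = 3.14e-05) and H2-DMb1 at -1.74 ± 0.26 (adjusted p = 1.03e-05) foremost. H2-Oa and H2-Ob did not pass. Against muscle the effect in bone was lower for 5 (5.19% of all genes were lower): H2-Aa, H2-Ab1, H2-Eb1, Cd74 and H2-DMb1, with H2-Eb1 at -1.47 ± 0.30 (adjusted p = 0.00101). Without depleted muscle library 1 or control muscle library 2 it was lower for 3, and with the 4 compared groups alone for 3. Between muscle and skin the effects of 0 of the 10 differed at day 7 (3 at an unadjusted p under 0.05, 0 by DESeq2, and 2.78% of all genes) and 0 at day 4 (1 at an unadjusted p under 0.05, 0 by DESeq2, and 0.265% of all genes). Heart is in another table and was not part of these tests.

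Class II genes rose between days 4 and 7 in muscle, in both arms. In control muscle H2-Aa rose from 2261, 2379 and 2775 CPM at day 4 to 5021, 5888 and 6146 CPM at day 7 (log2 change 1.15 ± 0.16 SE, edgeR adjusted p = 0.000163). Cd74 rose from 2378, 2980 and 3015 CPM to 4380, 6111 and 6871 CPM (1.00 ± 0.17, adjusted p = 0.00145). Of the 10 genes 9 rose in control muscle, where 4.49% of all genes rose, and 8 in depleted muscle, where 10.7% did. Ciita was the exception in both arms, at 45.8, 53.0 and 73.5 CPM at day 4 and 63.2, 64.0 and 95.9 CPM at day 7 in control libraries (0.31 ± 0.23, adjusted p = 0.510) and 0.21 ± 0.23 (adjusted p = 0.609) in depleted ones. H2-Ob did not pass in the depleted arm. In control muscle 7 or 8 genes passed with 1 library left out, since the calls of H2-Oa and H2-Ob (adjusted p = 0.0489 and 0.0464) were each lost in 5 of 6 such fits and with the Rn18s-rs5 covariate (adjusted p = 0.0566 and 0.0504).

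The medians of the 10 genes over time in muscle were 1.12 in control and 1.26 in depleted libraries, beside -0.01 and -0.02 over all genes. Dendritic cell markers rose over the same days, 4 of 7 tested in control and 3 of 7 in depleted muscle, and their sum went from 168 to 257 CPM at day 4 to 363 to 431 CPM at day 7 in control libraries. T and NK cell markers rose as well, 5 of 5 tested in control muscle, from sums of 11.1 to 15.6 CPM to 39.0 to 79.1 CPM. Neutrophil markers summed to 140 to 178 CPM at day 4 and 1014 to 2646 CPM at day 7 in depleted muscle, with 3 of 7 tested higher and 1 lower, and to 128 to 149 CPM and 122 to 140 CPM in control muscle. Their part in the rise of class II was not tested.

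Skin showed a rise over time in the depleted arm for 7 of the 10 genes (1.36% of all genes rose): H2-Aa, H2-Ab1, H2-Eb1, Ciita, H2-DMa, H2-DMb1 and H2-DMb2. For all 10 genes every depleted library of day 7 lay above every depleted library of day 4, as did 4.45% of all genes tested. H2-Eb1 rose from 1289, 1328, 1431 and 1852 CPM to 2671, 2897, 3480 and 4022 CPM (log2 change 1.1 ± 0.15, edgeR adjusted p = 0.000149), and Ciita from 27.6, 35.3, 46.3 and 49.1 CPM to 67.5, 79.0, 94.0 and 122 CPM (1.16 ± 0.23, adjusted p = 0.00584). In control skin 1 gene passed, H2-Oa (1.43 ± 0.38, adjusted p = 0.0471), where 1.42% of all genes rose, although all 10 changes were above 0. That call was lost without control day 4 library 1, 3 or 4 or control day 7 library 1 or 2. Without control day 4 library 4 H2-Eb1 and Cd74 passed in its place, and without control day 7 library 3 H2-DMb2 passed beside it. Dendritic cell markers in depleted skin summed to 157 to 249 CPM at day 4 and 299 to 399.5 CPM at day 7 (2 of 7 tested rose), and Langerhans cell markers to 0.240 to 3.26 CPM and 5.86 to 13.0 CPM (1 of 2 rose). Most of that day 7 sum was Epcam, given the low Cd207 level of depleted skin stated above, so it does not show more Langerhans cells. In control skin the sums were 153.5 to 235.5 CPM and 234.5 to 345 CPM for dendritic cell markers and 0.883 to 2.99 CPM and 15.4 to 25.0 CPM for Langerhans cell markers. Whether cells with these markers had a part in the rise of class II was not tested. The difference between the arms over time is the same test as the difference of the depletion effect between days given above, in which 0 of 10 passed.

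Fewer genes passed over time in heart and bone than in muscle or depleted skin. Medians of the 10 log2 changes were 0.67 in control and 0.77 in depleted heart, beside 0.03 and 0.05 over all genes. H2-Eb1 reached 1.14 in control heart without passing. In bone the medians were 0.225 and 0.459, beside -0.018 and 0.001. Changes over time were not compared between tissues by a test. In control heart H2-DMb2 fell by 0.96 on the log2 scale from day 4 to day 7 (SE 0.28, edgeR adjusted p = 0.014), where 16.9% of all genes fell, and it was the 1 gene of 10 that passed, a call lost without control library WT4 or W3 and when H2-DMb1 and H2-DMb2 were summed. For 6 genes, the chains, Cd74, H2-DMa and H2-DMb1, every control library of day 7 lay above every control library of day 4, as did 27.2% of all genes tested, and fitted without the depleted libraries 7 rose and H2-DMb2 fell. In depleted heart 0 passed (2 at an unadjusted p under 0.05, 1 by DESeq2, H2-Eb1), where 27.3% of all genes changed, and 4 passed without the lowest of the depleted day 7 libraries for H2-Aa, FDG3 by its column name. In control bone 0 passed between day 7 and day 10 (0 at an unadjusted p under 0.05, 0 by DESeq2, and 0.0393% of all genes). In depleted bone 2 rose (7.13% of all genes rose), H2-Ab1 from 413, 695, 911, 930 and 1278 CPM to 1349, 1429 and 1952 CPM (0.96 ± 0.26, adjusted p = 0.0246) and H2-DMb2 (0.82 ± 0.26, adjusted p = 0.0414), and neither passed without any 1 of the 3 day 10 libraries, while 1 passed without day 7 library 1 or 5 and 4 without library 3.

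**Figure D5:**
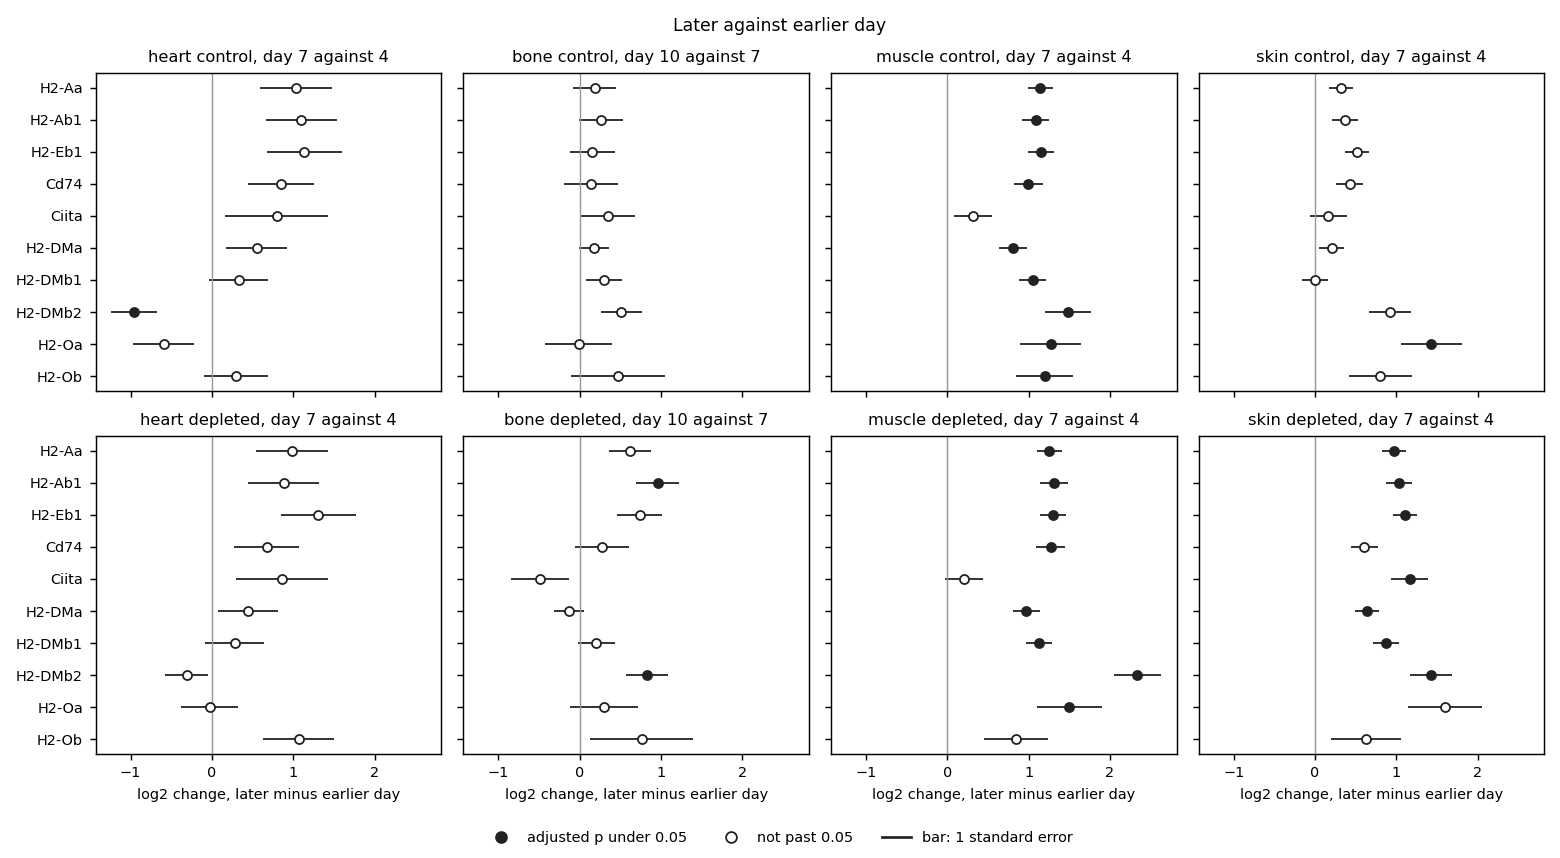
Log2 change, later minus earlier day (x axis, points with bars of 1 SE), of the 10 genes in control (upper row) and depleted libraries (lower row) of each tissue, filled where the edgeR adjusted p was under 0.05. In muscle the filled points lie between 0.81 and 2.34 with Ciita at 0.31 and 0.21, and in skin 7 points are filled in the depleted arm against 1 in the control arm.

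The wider pathway was counted on 5 lists. On the transcription list, which holds RFX, NF-Y and IRF genes among others, Irf1, a factor that acts on the Ciita promoter downstream of interferon gamma, was higher in the depleted arm in 5 of the 8 comparisons. Its log2 changes there were 1.42 in bone at day 7, 1.65 and 0.83 in skin at days 4 and 7, 0.92 in muscle at day 7 and 1.83 in heart at day 4. In bone at day 7 it rose while the class II chains fell, and in skin at day 7 it rose together with Ciita. In the others Ciita did not pass: skin at day 4 (log2 change -0.09, edgeR adjusted p = 0.899), muscle at day 7 (0.34, adjusted p = 0.458) and heart at day 4 (1.16, adjusted p = 0.317). A link between Irf1 and the class II genes was not tested. The NF-Y subunit gene Nfyb rose in bone at both days (0.62 and 0.91), and Irf4 rose in skin at day 7 (1.56). Of the list 0 genes fell in any of the 8 comparisons.

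On the list of interferon gamma receptor and feedback genes, 6 tested in each tissue, Socs1, which damps cytokine signalling, rose in bone at day 7 (1.43), skin at days 4 and 7 (1.53 and 1.16), muscle at day 7 (1.69) and heart at day 4 (1.69). The kinase Jak2 rose in bone at both days (0.83 and 1.36), in muscle at day 7 (0.90) and in skin at days 4 and 7 (1.16 and 1.17). Those that fell were Socs3 (-1.32) and the receptor chain Ifngr1 (-0.48) in bone at day 7 and the receptor chain Ifngr2 (-0.40) in heart at day 4. The list medians lay between -0.18 and 0.17.

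Of the 9 endosomal processing genes, 8 fell in bone at day 7, where 12.6% of all genes tested fell. They were led by the cathepsin Ctsl (-2.20), the legumain Lgmn (-2.09), which cuts antigens at asparagine, and the cathepsin Ctsb (-1.82). The list median was -1.26. In bone at day 10, 5 fell, led by Ctsb (-1.43), Lgmn (-1.13) and Ctsd (-0.82), where 8.22% of all genes fell. Skin at day 7 had 3 higher and 1 lower, where 6.21% of all genes changed. The thiol reductase Ifi30 at 0.78 and Lgmn at -0.63 lay farthest from 0. Ifi30 also rose in heart at day 7 (0.58), Ctsz in heart at day 4 (0.41) and Ctsl in muscle at day 7 (0.81), and 0 of the 9 passed in muscle and skin at day 4.

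Genes that act on class II at the cell surface were counted on a list of 4. Cd83, which shields class II from the ubiquitin ligase Marchf1, stood at 262.5 ± 70.8 CPM in control and 51.6 ± 13.0 CPM in depleted bone at day 7 (SD, n = 5 each; log2 change -2.39, edgeR adjusted p = 3.92e-07). It also fell in bone at day 10 (-2.47), muscle at day 7 (-0.82) and skin at days 4 and 7 (-0.82 and -1.10). Il10, which lowers class II on the surface of monocytes, fell in bone at both days (-1.88 and -2.61), in muscle at day 7 (-1.60) and in skin at day 7 (-1.91). Marchf1 and Marchf8 passed in 0 of the 8 comparisons. Among the costimulatory genes, of which 4 of 5 were tested, Cd86 fell in bone at day 7 (-0.99) and muscle at day 7 (-0.93), and Cd40 rose in skin at day 7 (0.91).

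Across the 12 group means of bone, muscle and skin, the chains kept close company. The correlation with H2-Ab1 (Pearson's r of log2 CPM, groups that share a table and a normalization) was 0.995 for H2-Eb1, 0.993 for H2-Aa and 0.969 for Cd74, the 3 highest of 14339 genes. H2-DMb1 stood at 0.921 (7th), Ciita at 0.900 (17th), H2-DMb2 at 0.889 (32nd) and H2-DMa at 0.868 (64th). H2-Ob (0.585) and H2-Oa (0.367) stood far down the order, at 1794th and 4110th. The genes outside the 10 that came nearest were Bcl2a1d (0.952), Cltb (0.936), Bcl2a1b (0.933), Smyd5 (0.920) and Mag (0.920).

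In the order of the 12 group means, H2-Aa ran from control muscle at day 7 (5685 ± 589 CPM, SD, n = 3) through depleted muscle, depleted skin and control skin at day 7, then the day 4 groups of muscle and skin and control bone, down to depleted bone at day 10 (896 ± 169.5 CPM, n = 3) and day 7 (605 ± 252 CPM, n = 5). Of its 11 pairs of neighbours 8 overlapped. For H2-DMa, H2-DMb2, H2-Oa and H2-Ob all 11 neighbours overlapped. Ciita was highest in depleted skin at day 7 (90.5 ± 23.4 CPM, n = 4) and lowest in depleted bone at day 10 (10.8 ± 2.40 CPM, n = 3), and H2-Oa was highest in control skin at day 7 (24.8 ± 9.0 CPM, n = 4) and lowest in depleted skin at day 4 (2.76 ± 1.89 CPM, n = 4). In heart the order of the 4 group means was the same for H2-Aa, H2-Ab1, H2-Eb1 and Cd74, from control day 4 through depleted day 4 and control day 7 to depleted day 7. For each of these genes 2 of the 3 pairs of neighbours overlapped, and all were read in the same libraries.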

How the data were processed

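Foxp3(DTR/GFP) and wild-type mice given DT were compared in 56 libraries primed at the poly-A tail and tagged with a UMI (unique molecular identifier), as the labels' protocols describe. For heart the authors deposited whole-number counts, and the submitters' processing notes name STAR, Salmon, featureCounts, limma and GRCm38. For the other 3 tissues they deposited estimated counts in 1 table, with STAR, featureCounts, limma, GRCm38 and GRCm39 named in those notes. In that second table, of non-zero values 19.4% lay over 0.01 from a whole number, and they were rounded before the tests. Not given in the sources used here are tool versions, the annotation and any collapsing of UMIs. Counts divided between near-identical genes make H2-DMb1 and H2-DMb2 uncertain.

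The test was edgeR's robust quasi-likelihood F test (version 4.0.16, R 4.3.3) after filterByExpr and TMM, called at a Benjamini-Hochberg adjusted p under 0.05 over every gene tested. Each tissue's 4 groups were fitted together, and tissues were compared in 1 fit of the 12 bone, muscle and skin groups, for 28 comparisons. Standard errors were obtained by dividing the size of the log2 change by the root of F. The fits were tested on simulated data. All 10 genes were counted in every comparison, with values for those a result turns on, and of the 5 pathway lists up to 3 called genes per comparison, those with the largest change, and others are given where a result turns on them. The members and lists were chosen with earlier results of these data known. Some list genes are not reported here. Marchf1 and Marchf8 were matched in the heart table by gene identifier. Heart libraries were assigned to groups by column names, which carry no replicate number. Some bone day 10 and muscle day 7 columns carry a pair of numbers whose meaning the labels do not give. Alternatives were RLE scaling, no filter, DESeq2 1.42.0, limma-voom (limma 3.58.1), the compared groups alone, a replicate block, an Rn18s-rs5 covariate, the sum of H2-DMb1 and H2-DMb2, and each library left out. Motifs and shared 31-base words were counted in Python on RefSeq promoter windows and GENCODE transcripts of GRCm38. Depth limits H2-Ob and H2-Oa most.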

Additional observations from a re-analysis of the deposited data

Results flagged for a closer look

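The depletion effect at day 7 differed between tissues by a test of the difference itself (edgeR, adjusted over all genes). In bone it was lower than in muscle by log2 differences of -1.39 for H2-Aa, -1.42 for H2-Ab1, -1.47 for H2-Eb1, -1.29 for Cd74 and -0.85 for H2-DMb1. With the compared groups alone the calls of Cd74 and H2-DMb1 were lost (-1.30 and -0.86, adjusted p = 0.123 and 0.0949), and leaving out 1 library lost that of H2-DMb1 in 12 of 16 fits and that of Cd74 without depleted muscle library 1 or control muscle library 2. Against skin the differences were -1.66 for H2-Aa, -1.78 for H2-Ab1, -1.66 for H2-Eb1, -1.35 for Cd74, -1.29 for Ciita, -1.27 for H2-DMa, -1.74 for H2-DMb1 and -1.16 for H2-DMb2. With the compared groups alone the calls of Ciita and H2-DMb2 were lost (-1.28 and -1.16, adjusted p = 0.0594 and 0.051), and leaving out 1 library lost that of H2-DMb2 in 9 of 18 fits and that of Ciita in 3 (without control bone library 1, depleted skin library 4 or control skin library 1).

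A single library stood apart from its group in 3 of 60 combinations of a gene and a group of 4 or 5 libraries, by its gap to the nearest library as a share of the group's range, and chance gives about 1 in 20. Library 2 of depleted skin at day 4 held 2435 CPM of H2-Aa, above the other 3. Library 1 of the same group held 1.04 CPM of H2-Ob, below the other 3. Library 5 of control bone at day 7 held 0 CPM of H2-Ob, with 0 of 2318268 counts, which allows a level of up to 1.29 CPM (3 counts, counting error only), and without it the fall of H2-Ob in depleted bone at day 7 passed (log2 change -1.40, edgeR adjusted p = 0.0224).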

How the results depend on the processing

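Over all alternatives 0 of the log2 changes that had passed reversed. Of 583 values of depletion under other settings 554 stayed on their side of the threshold, 13 no longer passed and 16 newly passed, and with 1 library left out these were 524, 33 and 3 of 560. For the remaining comparisons they were 1400, 17 and 40 of 1457, and 1962, 70 and 18 of 2050. Most of these values had not passed in the main fits and so could not lose a call. The lost calls are therefore out of far fewer values than these totals. Among values that passed in neither fit the sign changed in 0 and 22 for depletion and in 21 and 98 for the remaining comparisons. The cause of each difference below was not tested, except that fits of the compared groups alone and with 1 library left out use fewer samples. Counts are of the 10 genes that passed. A count is listed below only where it was over 1.5-fold from the main count, or where only 1 of them was 0. Smaller changes of a count are left out.

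With DESeq2 the count became 2 for depletion in heart at day 4, 3 for the day in control heart, 1 for the day in depleted heart, 3 for the day in control skin and 1 for the depletion effect between days in skin. With limma-voom it became 1 for depletion in skin at day 4. With no filter on low counts it became 1 for the day in depleted bone, 1 for the depletion effect between days in muscle, 3 for the day in control skin, 2 for the depletion effect between days in skin, 1 for control muscle against control skin at day 4 and 1 for the depletion effect between muscle and skin at day 7. With H2-DMb1 and H2-DMb2 summed it became 0 for depletion in heart at day 7, 0 for the day in control heart and 1 for the day in depleted bone. With the compared groups alone it became 5 for depletion in heart at day 4, 0 in heart at day 7 and 7 in bone at day 10, 8 for the day in control heart, 1 in depleted bone and 2 in control skin, and for tissues 1 for control muscle against skin at day 4, 3 for the depletion effect between bone and muscle and 1 between muscle and skin at day 7. With the Rn18s-rs5 covariate it became 0 for depletion in bone at day 10, 2 in skin at day 7, 0 for the day in control skin and 1 for the depletion effect between days in skin.

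With 1 library left out the count ran from 0 to 1 for depletion in heart at day 7, the day in control heart, the depletion effect between days in skin, control muscle against skin at day 4 and the depletion effect between muscle and skin at day 7. It ran from 0 to 4 for the day in depleted heart and depleted bone, 0 to 3 for depletion in bone at day 10, 0 to 2 for depletion in skin at day 4 and the day in control skin, 2 to 5 for depletion in skin at day 7, 2 to 4 for control muscle against skin at day 7 and 3 to 7 for the depletion effect between bone and muscle.

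Replicate numbers were shared, and whether they pair the samples is not settled. In the column names, depleted and control libraries of the same replicate number often carry unlike numbers, as in skin at the later day. Of 22 same-numbered pairs 4 correlated over 0.1 (range -0.134 to 0.195). Of the depleted libraries 12 correlated best with the control of their own number. That is more than a random pick among the 3 to 5 controls of a group would give, but it was not tested and does not show that the libraries are pairs. With a replicate block the count became 0 for the day in depleted bone and 3 for the day in control skin, and calls were also lost for H2-Aa in bone at day 10 (adjusted p = 0.0662), H2-Ob over time in control muscle (0.053) and H2-DMb1 in the effect of bone against muscle (0.0574). No paired analysis was possible in heart because its columns carry no replicate number.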
